A study of Mus musculus with 6 samples.

Results

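The genes of DNA replication and S phase were followed in the brains of male mice carrying an activated human SRY transgene. The set had 53 genes, taken as a fixed list of symbols: the MCM helicase, the origin recognition complex, licensing and firing factors, polymerases and primase, the sliding clamp and its loader, the single-strand binding protein RPA, Okazaki fragment maturation, nucleotide supply, upkeep of chromatin and DNA methylation, and repair at the fork. On the array, 52 of the 53 genes had 87 probes among the 25697 probes of 18138 symbols. A probe was tested where its detection p-value, which compares its brightness with that of control beads matching no transcript, was under 0.05 on at least 3 of the 6 arrays. This left 52 probes of 42 genes. The tested member probes were detected on all 6 arrays in 49 cases, and 0 entered through detections in 1 group alone. Of the 35 member probes left out, 29 were detected on no array. The 11 genes without a tested probe were Mcm8, Orc1l, Orc2l, Orc4l, Cdc6, Gmnn, Pola1, Prim1, Pole2, Brca1 and Rnaseh2a, of which Rnaseh2a was not analysed here.

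The samples were whole brains of FVB males (FVB/N in the paper) at postnatal day 6, 3 from hSRY-OFF and 3 from hSRY-ON mice, each on an Illumina MouseRef-8 v2.0 bead array. The study placed a single-copy transgene, Signalox-hSRY, at the H11 locus. Its methods define hSRY-OFF mice as carriers of this transgene without recombination. Elsewhere it describes controls as littermates without the transgene, with or without Ddx4-Cre. Which of these the hSRY-OFF samples were, and whether their mothers carried Ddx4-Cre, cannot be settled here. The transgene encodes human SRY together with the green protein EGFP. Recombination changes SRY, EGFP and the red protein DsRed2 at once. Before it, the CAG promoter, which is active in most cell types, drives DsRed2. A DsRed2 cassette flanked by loxP sites then separates the promoter from human SRY and EGFP. In hSRY-ON mice Cre made in the oocyte of Ddx4-Cre mothers had removed this cassette at the start of development, and the hSRY-ON animals used for RNA did not themselves carry Ddx4-Cre. The transgene was therefore active throughout the body and from the earliest stage, so that an action within the brain and one that reached it from other organs cannot be told apart in these samples. The paper also reports that hSRY-ON pups grew slowly, lacked milk in the stomach, had smaller brains and died early. The part of poor growth or feeding in the results below was not tested. The array had no probe assigned here to human SRY, and its activation was not measured in these data. The paper reports the SRY protein in newborn hSRY-ON brain by western blot, and green fluorescence in the brain.

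A cell copies its DNA once per cycle. In G1 the origin recognition complex, with Cdc6 and Cdt1, loads the ring of Mcm2 to Mcm7 onto DNA, and in S phase the kinase Cdc7 with its activator Dbf4, together with Cdc45, turns this ring into the moving helicase. Polymerases with the clamp PCNA then copy both strands, and ribonucleotide reductase, thymidylate synthase and thymidine kinase supply the building blocks. Many of these genes are transcribed by E2F factors at the entry into S phase. In the early postnatal mouse brain, dividing cells are mainly granule cell precursors of the cerebellum and glial and neural progenitors.

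Promoter sequence was read for the members from RefSeq, build GRCm38.p6, as windows of 300 bases, with 250 bases before and 50 after the start of the gene. Windows were found for 47 of the 53 members, 7 of them under a newer symbol (for example Orc3 for Orc3l). They were searched on both strands for the E2F letters TTTCCCGC, TTTCGCGC, TTTGCCGC and TTTGGCGC, with overlapping matches counted as 1. These letters occurred in 16 of the 47 members (34.0%), against 704 of all 27025 genes with a window (2.61%) and 744 of all 32851 windows (2.26%). Among genes with a tested probe and a window, 11 of 37 members (29.7%) and 282 of 6735 genes (4.19%) held a match. The windows below belong to 4 MCM genes whose hSRY-ON arrays all read below the hSRY-OFF arrays but which were not called, to the called gene Pold1, and to Rfc3 and Dnmt1, whose differences were positive and whose windows also held the letters. Capitals mark the matched letters on either strand.
Mcm3: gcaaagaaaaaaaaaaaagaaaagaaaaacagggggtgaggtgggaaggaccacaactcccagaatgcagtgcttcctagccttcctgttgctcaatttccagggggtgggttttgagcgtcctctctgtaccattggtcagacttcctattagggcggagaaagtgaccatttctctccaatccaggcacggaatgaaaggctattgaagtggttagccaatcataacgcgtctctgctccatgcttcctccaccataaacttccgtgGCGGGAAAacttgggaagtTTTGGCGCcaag
Mcm5: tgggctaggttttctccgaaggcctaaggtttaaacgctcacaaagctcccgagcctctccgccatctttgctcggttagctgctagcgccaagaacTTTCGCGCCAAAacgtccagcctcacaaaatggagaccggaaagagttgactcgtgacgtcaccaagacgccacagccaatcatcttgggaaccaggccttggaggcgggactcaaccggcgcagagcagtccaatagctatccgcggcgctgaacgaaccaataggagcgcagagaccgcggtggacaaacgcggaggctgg
Mcm6: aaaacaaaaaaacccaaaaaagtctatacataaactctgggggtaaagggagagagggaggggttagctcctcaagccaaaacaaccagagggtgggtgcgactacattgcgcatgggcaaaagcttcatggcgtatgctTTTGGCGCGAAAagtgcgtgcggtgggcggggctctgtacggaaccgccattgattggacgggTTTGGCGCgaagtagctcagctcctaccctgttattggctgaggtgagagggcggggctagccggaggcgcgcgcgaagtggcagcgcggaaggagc
Mcm7: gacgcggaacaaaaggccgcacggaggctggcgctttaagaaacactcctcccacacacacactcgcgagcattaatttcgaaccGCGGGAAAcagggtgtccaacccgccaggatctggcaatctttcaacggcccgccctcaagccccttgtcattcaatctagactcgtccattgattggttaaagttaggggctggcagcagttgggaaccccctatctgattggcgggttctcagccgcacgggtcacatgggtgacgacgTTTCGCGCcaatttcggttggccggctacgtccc
Pold1: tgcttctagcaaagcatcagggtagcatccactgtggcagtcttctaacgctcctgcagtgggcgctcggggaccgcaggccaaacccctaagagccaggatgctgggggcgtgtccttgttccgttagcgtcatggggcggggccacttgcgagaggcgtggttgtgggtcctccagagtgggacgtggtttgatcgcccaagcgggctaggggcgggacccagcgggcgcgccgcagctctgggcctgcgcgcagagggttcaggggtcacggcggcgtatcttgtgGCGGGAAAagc
Rfc3: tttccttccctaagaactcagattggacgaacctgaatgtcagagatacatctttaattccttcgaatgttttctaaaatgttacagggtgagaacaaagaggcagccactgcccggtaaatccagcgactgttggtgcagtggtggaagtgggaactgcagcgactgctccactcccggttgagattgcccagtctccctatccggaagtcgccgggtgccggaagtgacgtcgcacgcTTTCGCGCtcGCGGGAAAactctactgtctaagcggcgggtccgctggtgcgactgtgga
Dnmt1: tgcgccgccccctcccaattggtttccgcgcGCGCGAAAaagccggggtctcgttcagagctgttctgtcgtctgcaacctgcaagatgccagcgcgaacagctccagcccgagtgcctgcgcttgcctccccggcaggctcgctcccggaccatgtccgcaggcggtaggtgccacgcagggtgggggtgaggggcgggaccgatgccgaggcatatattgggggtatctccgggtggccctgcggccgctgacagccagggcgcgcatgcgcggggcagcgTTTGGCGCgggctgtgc

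The windows lie at chr1:20820263-20820562 on the minus strand for Mcm3, chr8:75109259-75109558 on the plus strand for Mcm5, chr1:128359656-128359955 on the minus strand for Mcm6, chr5:138171834-138172133 on the minus strand for Mcm7, chr7:44548766-44549065 on the minus strand for Pold1, chr5:151651159-151651458 on the minus strand for Rfc3 and chr9:20952574-20952873 on the minus strand for Dnmt1. Mcm7 had 2 windows and Dnmt1 had 3, and the window with the most matches is shown. The Mcm3 and Pold1 matches lie after the start of the gene, the Mcm5 and Mcm6 matches before it, those of Mcm7 and Dnmt1 on either side, and those of Rfc3 next to or at it. Matches were also present in the windows of Orc3l, Cdt1, Lig1 and Uhrf1 among tested members. The windows of Mcm2 and Mcm10 held no match to these 4 strings.

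Intensities were background corrected, quantile normalized and put on the log2 scale, on which all levels and differences below are given. A difference is hSRY-ON minus hSRY-OFF. It comes from limma's moderated test over all 14215 tested probes, with the p-value adjusted over all of them by the Benjamini-Hochberg method, and a probe was called where this adjusted p was under 0.05. For genes with several probes the probe with the highest mean level is described unless another is named. The arrays had a median signal of 200 to 220 and 13816 to 14377 detected probes. The third hSRY-ON array stood apart from the other 2 hSRY-ON arrays on the second principal component (18.5% of the variance, score -22.2 against 8.92 and 7.63). Its bearing on the members is given beside the results.

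The replication genes as a set lay lower in hSRY-ON brains, with the lowest medians in the MCM helicase and the nucleotide supply genes. Of the 52 tested member probes 4 were called, all lower: those of Mcm4, Mcm10, Pold1 and Tyms. Over all tested probes 1.32% were called lower and 0.844% higher (2.17% in either direction). A further 11 member probes had an adjusted p between 0.05 and 0.10. At an unadjusted p under 0.05 there were 23 member probes lower and 1 higher, where the share of all probes was 10.9% lower and 10.1% higher. The hSRY-ON and hSRY-OFF arrays did not overlap for 25 member probes with hSRY-ON lower and for 1 with hSRY-ON higher, against 14.2% and 13.5% of all probes.

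By gene, 36 of the 42 members had a negative difference and 6 a positive one. The median difference over the members was -0.24, and the median over all tested probes was 0.0048. The member values ran from -0.93 (Mcm3) to 0.32 (Dnmt1). For 20 members the 95% interval of the difference lay wholly below 0, for 1 wholly above 0, and for 21 it lay within 0.5 of 0 on either side. These counts are not exclusive. The interval of Rpa1 (-0.42 to -0.07) lay both below 0 and within 0.5 of it, and that of Pcna (-0.45 to 0.69) met none of these conditions. The median deviation of the 42 members from the hSRY-OFF mean was 0.05, -0.0024 and -0.04 on the hSRY-OFF arrays and -0.27, -0.34 and -0.14 on the hSRY-ON arrays, so the groups did not overlap. In whole tissue, fewer replicating cells and less transcript in each cell cannot be told apart.

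**Figure D1:**
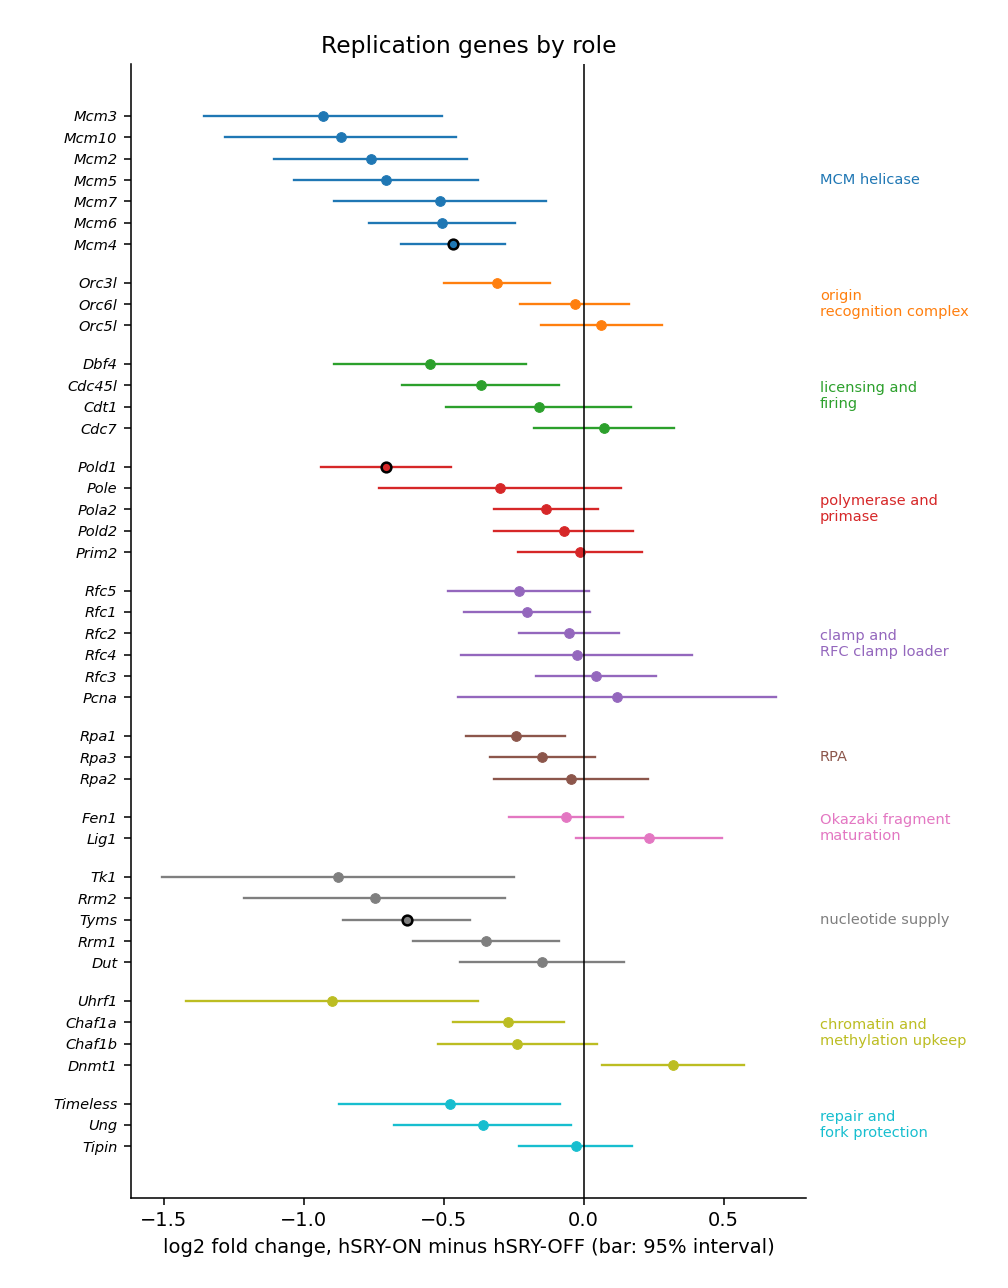
Log2 difference in hSRY-ON against hSRY-OFF brains for the 42 replication genes with a tested probe, grouped by role, with the brightest probe per gene and its 95% interval as a bar. Black rings mark called probes (for Mcm10 the called probe was the dimmer one and is not drawn), and all 7 MCM genes lie between -0.93 and -0.47 while Dnmt1 lies at 0.32.

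The helicase had the lowest median of the 10 role groups, except with no filter on dim probes, where its median was -0.61 and that of nucleotide supply -0.63. All 9 tested probes of its 7 genes had no overlap between the groups, and the median difference was -0.71. For Mcm4, a subunit of the catalytic core, the hSRY-OFF arrays read 10.78, 10.74 and 10.66 and the hSRY-ON arrays 10.26, 10.21 and 10.32. All hSRY-ON values lay close together, and Mcm4 fell by 0.47 (SE 0.08, adjusted p = 0.0386), to 72.3% of the hSRY-OFF level. Mcm10, which joins the helicase as it starts to move, was called by its dimmer probe (ILMN_2679464), with 6.41, 6.53 and 6.51 in hSRY-OFF and 5.93, 5.99 and 5.95 in hSRY-ON. On this probe Mcm10 fell by 0.53 (SE 0.08, adjusted p = 0.0313). Its brighter probe (ILMN_2970532) read 8.19, 8.26 and 8.26 against 7.47, 6.96 and 7.68. Its difference, -0.87 (SE 0.18, adjusted p = 0.0557), was larger but so was the spread among the hSRY-ON arrays.

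The other subunits of the ring were lower on every hSRY-ON array without passing the threshold. Mcm2 read 8.90, 8.76 and 8.65 in hSRY-OFF and 7.74, 8.01 and 8.28 in hSRY-ON, a difference of -0.76 (SE 0.15, adjusted p = 0.0513). Mcm3 had the most negative difference of any member, -0.93 (SE 0.18, adjusted p = 0.0513), with 7.78, 7.77 and 7.73 against 6.47, 6.79 and 7.23. In both genes the third hSRY-ON array lay nearest to the hSRY-OFF arrays, which were tight for Mcm3. Mcm5 read 10.12, 10.17 and 10.11 against 9.24, 9.30 and 9.75, a difference of -0.71 (adjusted p = 0.053). Mcm6 read 9.70, 9.55 and 9.40 against 9.02, 8.93 and 9.18 (difference -0.51, adjusted p = 0.0662), and its other probe had the same difference. Mcm7 read 7.57, 7.57 and 7.58 against 6.98, 6.77 and 7.43, the last of which was close to the controls (difference -0.51, adjusted p = 0.139). Levels of different genes are not compared, since each probe has its own brightness.

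**Figure D2:**
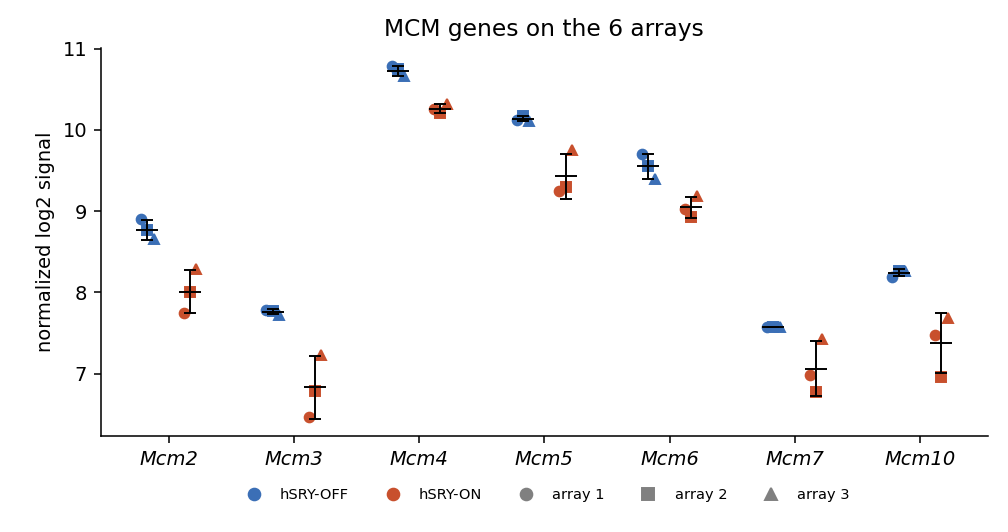
Normalized log2 signal of the 7 MCM genes on each of the 6 arrays (brightest probe per gene, marker shape by array number), with the group mean and SD (n = 3) as black bars. The hSRY-ON points lie below all hSRY-OFF points for each gene, and the third hSRY-ON array is the highest of its group.

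Upstream of the helicase, the origin recognition complex showed little difference, with a median of -0.03 over its 3 tested genes. Orc3l was the lowest at -0.31 (adjusted p = 0.0929), with 8.49, 8.45 and 8.37 in hSRY-OFF and 8.16, 8.17 and 8.05 in hSRY-ON. Orc5l was the highest at 0.06 (adjusted p = 0.739), and its arrays overlapped (10.86, 10.76 and 10.64 against 10.80, 10.91 and 10.74). Orc6l, at -0.03, also overlapped. Among the 4 licensing and firing genes (median -0.26), Dbf4 read 8.15, 8.09 and 7.92 against 7.47, 7.25 and 7.79, a difference of -0.55 (SE 0.15, adjusted p = 0.0989). Its kinase partner Cdc7 read 10.30, 10.23 and 10.22 against 10.30, 10.51 and 10.16, a difference of 0.07 (adjusted p = 0.741), with overlap. Cdc45l, the helicase cofactor, was at -0.37 with no overlap, and Cdt1, the MCM loader, at -0.16 with overlap.

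At the fork, the polymerase gene with a call was Pold1, the catalytic subunit of the lagging-strand polymerase delta. It read 8.98, 9.04 and 8.85 in hSRY-OFF and 8.14, 8.22 and 8.40 in hSRY-ON. It fell by 0.70 (SE 0.10, adjusted p = 0.0294), to 61.4% of the hSRY-OFF level, and this was the lowest adjusted p of any member. The accessory subunit Pold2 was at -0.07 (adjusted p = 0.744). Pola2, of the priming polymerase alpha, was at -0.14, and Prim2, the large primase subunit, at -0.01 (9.07, 9.12 and 8.93 against 8.97, 9.14 and 8.97). Pole, the leading-strand polymerase, was dim (detected on 4 of 6 arrays) and its arrays overlapped (-0.30, adjusted p = 0.4). The group median was -0.14.

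The clamp with its loader had a median difference of -0.04 and the single-strand binding protein one of -0.15, with 0 calls. Their summed signals did not overlap between the groups, at 4617 to 4845 in hSRY-OFF and 4343 to 4566 in hSRY-ON for the clamp and loader, and 7032 to 7237 and 5964 to 6395 for RPA. Sums of lists outside replication, such as the neuron markers, did not overlap either. By gene, hSRY-ON lay lower without overlap in 1 of 6 clamp and loader genes and 2 of 3 RPA genes, against 14.2% of all probes. The probe for Pcna, the clamp, was detected on only 2 arrays of each group, and read 5.47, 5.59 and 5.27 in hSRY-OFF and 5.91, 4.98 and 5.80 in hSRY-ON. Its difference was 0.12, with a 95% interval from -0.45 to 0.69, and 0.41 without the second hSRY-ON array. A probe this close to background leaves little room for a lower reading. The 5 loader genes lay between -0.23 (Rfc5) and 0.04 (Rfc3), and Rfc3, with 8.10, 8.30 and 8.32 against 8.26, 8.35 and 8.25, had an interval from -0.17 to 0.26. For Rpa1, the large RPA subunit, the arrays did not overlap (11.81, 11.87 and 11.81 against 11.59, 11.53 and 11.64; difference -0.24, adjusted p = 0.134), and Rpa2 was at -0.04 with overlap. In Okazaki fragment maturation, Lig1, the ligase that seals the lagging strand, was at 0.23 (8.71 to 8.96 in hSRY-OFF and 8.93 to 9.23 in hSRY-ON, adjusted p = 0.282), and Fen1, the flap nuclease, was at -0.06 (10.23, 10.11 and 10.13 against 10.03, 10.04 and 10.21).

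The genes that supply nucleotides were the second low group, with a median of -0.63 over 5 genes and a negative difference on all 8 tested probes. Tyms, thymidylate synthase, read 8.99, 8.98 and 8.85 in hSRY-OFF and 8.26, 8.20 and 8.46 in hSRY-ON. It fell by 0.63 (SE 0.10, adjusted p = 0.033), to 64.5% of the hSRY-OFF level, while a dimmer Tyms probe overlapped (-0.20, adjusted p = 0.514). Rrm2, the subunit of ribonucleotide reductase that is made in S phase, read 8.15, 8.10 and 8.20 against 6.99, 7.39 and 7.83. Its difference was -0.75 (SE 0.20, adjusted p = 0.0977), and its other probe gave -0.79 (adjusted p = 0.0818). Rrm1, the partner subunit, was at -0.35 (adjusted p = 0.142), also with no overlap.

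Tk1, the thymidine kinase of dividing cells, depended strongly on a single array. It read 8.58, 8.52 and 8.47 in hSRY-OFF and 7.38, 7.24 and 8.33 in hSRY-ON, so that 2 arrays were far below the controls and the third was near them. The difference was -0.88 (SE 0.27, adjusted p = 0.129), and -1.22 (adjusted p = 0.0161) without the third hSRY-ON array. A dimmer Tk1 probe overlapped (-0.17). Dut, which clears dUTP, was at -0.15 with overlap (8.36, 8.03 and 8.24 against 8.04, 7.90 and 8.24).

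**Figure D3:**
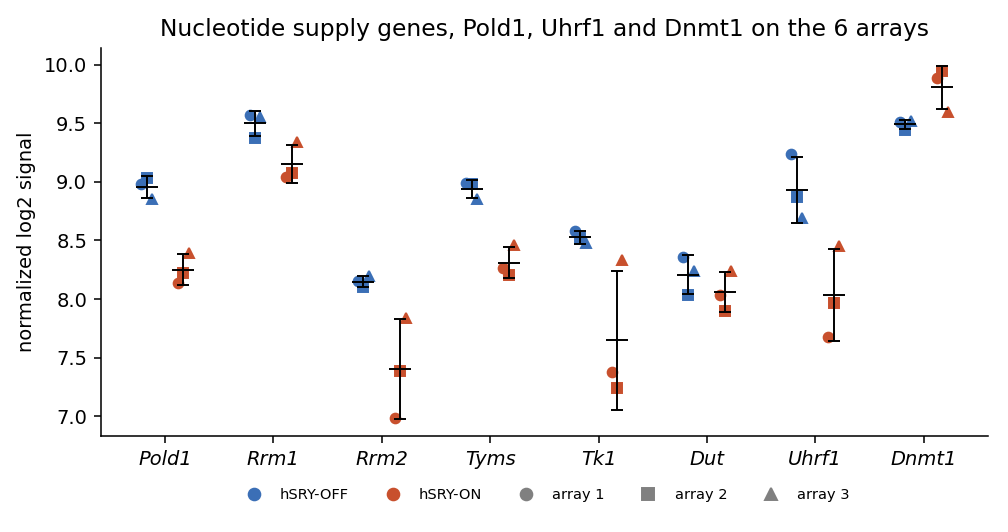
Normalized log2 signal on each of the 6 arrays for the nucleotide supply genes, Pold1, Uhrf1 and Dnmt1 (brightest probe per gene, marker shape by array number), with group mean and SD (n = 3) as black bars. Pold1 and Tyms are separated with little spread, Tk1 in hSRY-ON spans 7.24 to 8.33, and Dnmt1 is higher in hSRY-ON.

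The copying of DNA methylation held the widest contrast within a step. Uhrf1, which recognises hemimethylated DNA behind the fork, read 9.24, 8.87 and 8.69 in hSRY-OFF and 7.68, 7.96 and 8.46 in hSRY-ON (difference -0.90, SE 0.22, adjusted p = 0.0844). Dnmt1, the methyltransferase that it brings there, read 9.51, 9.44 and 9.52 against 9.88, 9.94 and 9.60 (difference 0.32, SE 0.11, adjusted p = 0.157). Of the 42 tested members only Dnmt1 had all hSRY-ON arrays above all hSRY-OFF arrays. The chromatin assembly subunits Chaf1a and Chaf1b were at -0.27 and -0.24. In repair and fork protection, Timeless was at -0.48 (7.95, 8.15 and 7.72 against 7.38, 7.24 and 7.77, adjusted p = 0.166) with overlap, its partner Tipin at -0.03 (10.52, 10.67 and 10.64 against 10.59, 10.50 and 10.66), and the uracil glycosylase Ung at -0.36. The other 2 Ung probes, dimmer but detected on all 6 arrays, overlapped, at -0.01 and -0.02.

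Partner genes could also be compared within each array, for 5 pairs chosen after their values were seen and so without a test. Relative to the hSRY-OFF mean, Pold1 minus Pold2 was -0.62, -0.59 and -0.70 on the hSRY-ON arrays, the tightest of these contrasts. Uhrf1 minus Dnmt1 was -1.65, -1.42 and -0.58. Dbf4 minus Cdc7 was -0.64, -1.06 and -0.17, and Rrm2 minus Rrm1 was -0.70, -0.34 and -0.16. These 4 differences did not overlap the hSRY-OFF arrays. Timeless minus Tipin did overlap them, with a mean shift of -0.45.

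The hSRY-ON arrays differed in how far the members lay from the controls. The third hSRY-ON array had the highest value of its group for 29 of the 42 members, and the lowest for 5. Over all tested probes it was the highest in 5054 of 14215 (35.6%). Among the 22 members with hSRY-ON lower and no overlap it was the highest in 19 (86.4%), against 45.6% of the 2017 such probes on the whole array. The MCM median was -0.77, -0.80 and -0.41 on the 3 hSRY-ON arrays, and the nucleotide supply median was -0.68, -0.74 and -0.20. Without the third hSRY-ON array the MCM median difference was -0.87 and 14 member probes were called, with 417 of all 13986 tested probes (2.98%). Leaving out any other array left 0 member probes called, and 0 or 1 of all probes. The direction of the MCM and nucleotide supply medians was negative on each hSRY-ON array.

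**Figure D4:**
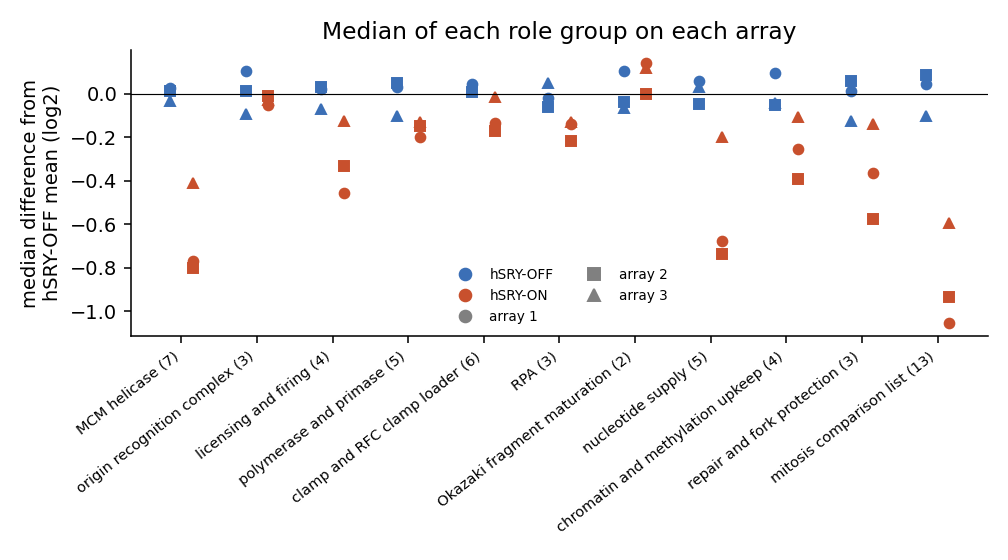
Median log2 difference from the hSRY-OFF mean for each role group and for the mitosis list, on each of the 6 arrays (number of genes in brackets, marker shape by array number). The MCM, nucleotide supply and mitosis medians are negative on each hSRY-ON array, least so on the third, while the origin recognition and Okazaki medians overlap the controls.

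Genes next to the members in the pathway had mostly negative differences. Over all tested probes 1.32% were called lower and 0.844% higher. In a list of 51 further replication genes, 31 were tested with 38 probes, of which 2 were called lower and 0 higher. The median over the 31 genes was -0.15. Rad54l, of recombination repair, read 7.70, 7.75 and 7.66 in hSRY-OFF and 7.03, 6.74 and 6.98 in hSRY-ON, and fell by 0.79 (SE 0.10, adjusted p = 0.0263). Clspn, which relays stalled forks to the checkpoint, read 7.35, 7.36 and 7.36 against 6.48, 6.55 and 6.79 on the called probe, and fell by 0.75 (SE 0.10, adjusted p = 0.0263). Its brighter probe gave -0.67 (adjusted p = 0.0792). The highest was Nasp, a histone chaperone, at 0.25 on its brightest probe (adjusted p = 0.125), while its other 2 probes gave 0.23 and -0.07.

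Among 21 regulators of the E2F and RB pathway, 16 were tested with 24 probes, and 1 probe was called lower and 0 higher. Cdk2, the S-phase kinase, read 7.02, 7.18 and 6.87 in hSRY-OFF and 6.23, 6.23 and 6.52 in hSRY-ON on that probe, and fell by 0.69 (SE 0.12, adjusted p = 0.0405). The brighter Cdk2 probe gave -0.48 (adjusted p = 0.101). The lowest genes were Ccne2, a cyclin partner of Cdk2, at -0.78 (adjusted p = 0.057) and Rbl1, an RB relative, at -0.70 (adjusted p = 0.156). The highest were E2f5 at 0.04 and Cdc25a at 0.01. The median of the list was -0.24.

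The E2F letters occurred in members at either end of the range of differences. Among tested members, the 11 with a match had a median difference of -0.51, with 8 of 11 negative, and the 26 without had -0.23, with 23 of 26 negative. The range with a match ran from Mcm3 (-0.93) to Dnmt1 (0.32), as the printed windows show: the Rfc3 window holds a pair of matches, as does that of Mcm3, and Rfc3 was at 0.04. Of the nucleotide supply genes 0 of 5 held a match. The letters CCAAT, bound by NF-Y and searched on both strands, were in 54.1% of tested members and 43.0% of tested genes with a window. A match is a description of the sequence, and binding was not measured.

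Genes of mitosis, the step after replication, lay lower still. Of 20 genes on the comparison list 13 were tested, all negative, with 11 of 19 probes called lower and a median of -0.82. Top2a, the topoisomerase of dividing cells, read 9.63, 9.73 and 9.41 against 8.24, 8.44 and 8.83, and fell by 1.08 (SE 0.16, adjusted p = 0.0327). The mitosis median on the hSRY-ON arrays was -1.05, -0.93 and -0.59, again nearest the controls on the third. This list was known to be low in these brains when the members were chosen, and the difference from the members was not tested. Mki67 was not analysed here.

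**Figure D5:**
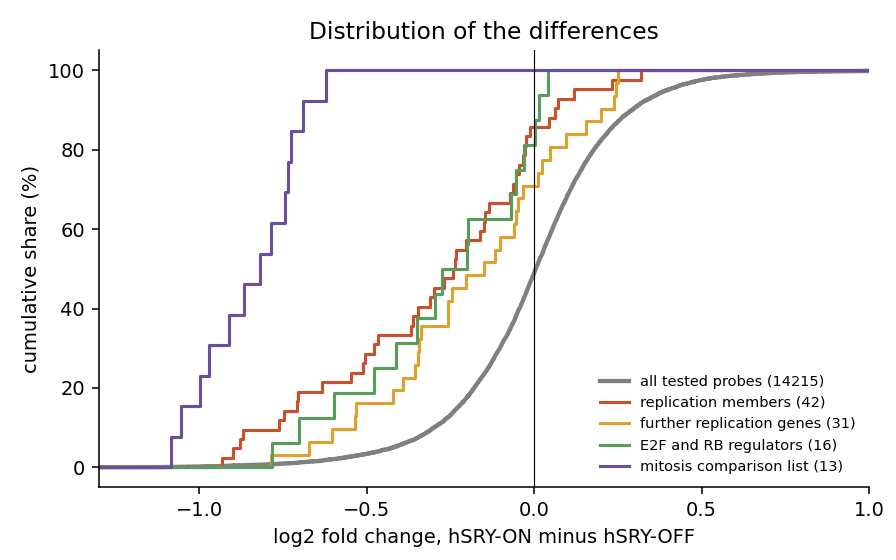
Cumulative share of genes (or probes, for all tested probes) against the log2 difference, hSRY-ON minus hSRY-OFF, with the brightest probe per gene in each list and the number in brackets. The members (median -0.24) lie left of all tested probes (median 0.0048) and right of the mitosis list (median -0.82).

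Markers of the cell types that divide at this age differed among themselves. Of 8 granule cell precursor genes 4 were tested, 1 negative and 3 positive, with a median of 0.05. Their summed signal was 1455 to 2077 in hSRY-OFF and 1814 to 2101 in hSRY-ON, and Atoh1, Gli1 and Mycn, also on this list, were detected on no array. Of 8 neural progenitor genes 5 were tested, 4 of them negative, with a median of -0.30, and 0 were called. Their summed signal was 3743 to 3862 in hSRY-OFF and 3219 to 3611 in hSRY-ON, and Pax6, Prom1 and Eomes were detected on no array. Of 7 oligodendrocyte precursor genes 6 were tested, 5 negative, with summed signals of 11761 to 12321 and 9650 to 10023, and Gpr17 fell by 0.73 (adjusted p = 0.0263). The part of these cell types in the lower replication genes was not tested.

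The remaining marker lists are given for the makeup of the tissue. All 8 oligodendrocyte genes were negative (median -0.43, summed signal 30893 to 39116 and 23632 to 24386), and 2 of 3 Mobp probes were called lower (the third was at -0.98, adjusted p = 0.0637). Among 7 tested astrocyte genes (median -0.22, 34424 to 35318 and 33880 to 38842) Gfap and Aqp4 were called lower, and 3 genes were positive, of which Gjb6 (0.46) and Aldoc (0.28) had no overlap and no call. All 5 choroid plexus genes were positive (median 0.44, 14764 to 17741 and 18241 to 22855), with Aqp1 called higher. The tested neuron genes had a median of -0.07 (36854 to 37662 and 32586 to 36634) and those of immature neurons 0.11 (37049 to 40917 and 40140 to 42397), although the Snap25 probe was detected on no array. Microglia genes had a median of 0.21 (2188 to 2477 and 2674 to 2930), endothelium genes -0.23 (6935 to 7381 and 5472 to 6150) and erythroid genes -0.08 (32436 to 36892 and 29032 to 36309), with 0 called. Their part in the results on replication genes was not tested.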

How the data were processed

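RNA from whole brains of 3 hSRY-OFF and 3 hSRY-ON mice was hybridised to bead arrays. The authors deposited, for each probe and array, a bead signal intensity on a linear scale and a detection p-value, with no normalization stated. The study names TCC for its own analysis, and the submitters' processing notes name limma, without a version. Here limma 3.58.1 was run in R 4.3.3: normexp background correction with negative controls inferred from the detection p-values (offset 16), quantile normalization, log2, a filter at detection p under 0.05 on at least 3 of 6 arrays, and lmFit and eBayes with the group as the only term (two-sided), with Benjamini-Hochberg adjustment over all 14215 probes. The offset makes the log2 differences of dim probes smaller than the true ones. Precision is limited by 3 arrays per group. The study describes biological triplicates. The labels do not say whether littermates were shared.

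Gene symbols were matched exactly as the table gives them. List medians use the brightest tested probe of a gene. Summed signals add these probes' normalized signals without the offset. Named genes were every called member, the lowest and highest member of each role, Pcna, Mcm2 to Mcm7 and Rrm2, members without a tested probe, the called genes and the 2 lowest and 2 highest of the further replication and E2F lists, Top2a, and called markers; 1 of these genes is not reported here. Other members were named to complete their role, after their values were seen. The members and all lists were chosen with earlier results of these data known. The steps were tested on simulated data. Promoter windows were searched in Python 3.11.15 and figures drawn with matplotlib 3.10.9. Alternatives covered background correction, normalization, filters, priors, weights, a replicate block, 1 probe per symbol, the threshold and leaving out each array.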

Additional observations from a re-analysis of the deposited data

How the results depend on the processing

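The direction of the member median was negative under each alternative run, from -0.30 to -0.17 against -0.24, which is within the spread between arrays (SD 0.08). The MCM median ran from -0.87 to -0.47 and the nucleotide supply median from -0.71 to -0.43, and of the 10 role groups only the origin recognition median changed sign (-0.08 to 0.02). The number of called member probes was less stable. Against 4 of 52, with 2.17% of all probes called, it was 17 (16 lower; 9.26% of all probes) with no background correction, 15 (6.05%) with normexp on the signals and an offset of 50, 8 (2.70%) with median scaling, 4 (2.38%) with cyclic loess, 2 of 87 (0.479%) with no filter on dim probes, 11 of 45 (6.07%) with detection p under 0.01 on all 6 arrays, 18 (17 lower; 10.2%) with a trended and robust prior, 8 (3.38%) with array quality weights, 7 of 42 (3.56%) with 1 probe per symbol and 15 (7.03%) at an adjusted p under 0.10. The further replication list went from 2 called probes to 7, 5, 4, 7, 4, 1 and 5 with no background correction, offset 50, strict detection, trended prior, array weights, 1 probe per symbol and the adjusted p of 0.10. Leaving out each array gave 0 to 14 called member probes and 0 to 3 of the further list. The value of 14 came without the third hSRY-ON array, and the 0 member calls by limma without any other array, where 0 or 1 of all probes were called, went with 19 to 22 member probes lower at an unadjusted p under 0.05. The 4 called probes kept their call in 10 of 17 alternatives (Mcm4), 7 of 15 (Mcm10), 11 of 17 (Pold1) and 10 of 17 (Tyms), with adjusted p from 0.000306 to 0.13 over all of them.

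The labels do not say whether replicate numbers pair the samples, and a pairing was not established. Deviations of same-numbered arrays correlated only weakly, at 0.04, 0.03 and 0.03. Still, each array correlated best with its own number, and correlations between different numbers were negative (-0.023 to -0.0054). With the number as a replicate block, 0 member probes, 0 of the further list and 0 of all probes were called by limma, with 23 member probes lower and 2 higher at an unadjusted p under 0.05. Members near 0 changed sign: Prim2 went from -0.01 to 0.0018 with array weights. When single arrays were left out Prim2 ran from -0.071 to 0.028, Tipin from -0.073 to 0.014, Rpa2 from -0.11 to 0.068, Pcna from -0.052 to 0.41 and Cdc7 from -0.021 to 0.15. The Pcna and Pole probes were dim, each detected on 4 of 6 arrays, and 3 arrays per group limit every call.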
